A study of Mus musculus with 8 samples.

Results

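The clustered histone genes of the mouse are the genes that encode the linker histone H1 and the core histones H2A, H2B, H3 and H4 in tandem loci. They were taken here as every gene whose symbol begins with Hist1h, Hist2h, Hist3h or Hist4h, which gave 67 of the 32285 genes listed for each library: 6 H1, 18 H2A, 18 H2B, 12 H3 and 13 H4 genes. They were followed in single-cell RNA libraries of mouse colon, as unique molecular identifiers (UMIs, 1 per captured RNA molecule), in all cells kept, and in cycling cells apart from the rest. A cell was placed in the cycling gate when it held at least 2 UMIs of Mki67 and at least 2 of Top2a, which mark dividing cells. The gate thus used only these 2 genes, and histone levels in gated against other cells are given as a description without a test.

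The study rebuilt the colon mucosa by embedding epithelial organoids with stromal cells in Matrigel (assembloids), and compared that epithelium with organoids alone and with the tissue. There were 4 groups of 2 libraries: stromal cells from assembloid cultures, and epithelial cells from assembloids, from organoids and from colon tissue. Per the study's methods the mice were young adult C57BL/6 males, with no engineered allele described for these groups, whereas the labels give no strain, age or sex. Colon crypts were grown as organoids in medium with surrogate Wnt, CHIR-99021, R-spondin 1 and noggin, which assembloids did not receive, so organoids and assembloids differed in medium as well as in stroma. The stroma placed in assembloids was grown in culture from digested colon tissue left after crypt isolation. The labels do not say whether the libraries of a group came from separate animals or cultures. The study calls them biological replicates, and p-values measure the spread between them.

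Replication-dependent histone genes are transcribed mainly in S phase, when newly made DNA must be packed into nucleosomes. Their mRNAs end, as a rule, not in a poly(A) tail but just after a short stem-loop that the stem-loop binding protein holds, and loss of that protein's support at the end of S phase is followed by decay of the mRNA. Some of these genes also give longer, polyadenylated mRNAs, known from differentiated cells. The libraries here were primed on poly(A), which favours polyadenylated RNA, so the UMIs follow the captured molecules rather than the whole histone mRNA pool. In the colon, dividing cells lie in the lower crypt and differentiated cells above them.

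The stem-loop is shown first because it sets how these mRNAs end. The 16 bases searched for were GG, 3 bases of any kind, TTTT, 1 base of any kind, AG, 2 bases of any kind and CC. They were found after the stop codon in 44 of the 67 members, and in 118 of 58797 protein-coding transcripts of GENCODE M21 (0.201%), members included. Each line below gives the transcribed strand, 5′ to 3′, with the stem-loop in capitals and up to 5 bases on each side. The loops began 38 (Hist1h2ap), 24 (Hist1h1c), 24 (Hist1h3c), 36 (Hist1h4d), 30 (Hist1h4i) and 21 (Hist2h2ac) bases after the stop codon.
Hist1h2ap (H2A): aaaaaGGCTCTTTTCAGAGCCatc
Hist1h1c (H1): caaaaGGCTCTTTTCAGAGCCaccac
Hist1h3c (H3): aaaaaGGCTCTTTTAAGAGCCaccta
Hist1h4d (H4): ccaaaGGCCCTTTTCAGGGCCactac
Hist1h4i (H4): ttaaaGGCCCTTTTTAGGGCCaccac
Hist2h2ac (H2A): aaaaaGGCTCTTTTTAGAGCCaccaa

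Hist1h2ap shared its form with 25 other members (26 in all), the form of Hist1h3c was found in 6 members, that of Hist1h4d in 7 H4 members, that of Hist1h4i in 2 (with Hist2h4) and that of Hist2h2ac in 1. The annotated transcript ended within 100 bases of the loop in 22 members and ran further in another 22, while 10 had a 3′ UTR without these letters, Hist1h2bc among them, and 13 were annotated as coding sequence only, Hist1h1b among them. Hist2h2ac was chosen for display after its values were seen.

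Of the 67 members, 54 lie on chromosome 13 within 2219 kb (21715763 to 23934851, GRCm38), 10 on chromosome 3 within 50.3 kb (96219865 to 96270132), 2 on chromosome 11 (58948920 to 58956830), and Hist4h4 alone on chromosome 6 (136801553 to 136804415). The members described most below are Hist1h2ap (13, 21833026 to 21833507, minus strand), Hist1h1b (13, 21779883 to 21780625, minus), Hist1h4i (13, 22040636 to 22041362, minus), Hist1h2bc (13, 23684199 to 23692908, plus), Hist1h1c (13, 23738808 to 23740367, plus) and Hist2h2aa1 (3, 96245497 to 96246082, plus). Members of a class are near-identical in places, so a read can fit several of them. No stretch of 90 bases in the last 400 of Hist1h2ap, Hist2h2aa1 or Hist1h2br was found in that gene alone, and the end of Hist1h1e lies within a transcript of Hist1h2be, so the split of UMIs among such members is uncertain. For Hist1h1b, Hist1h1c, Hist1h2bc, Hist1h4d and Hist1h4i every such stretch was unique among the 67 members. Other genes were not searched for shared stretches. By annotated position on the same strand, Hist3h2a overlaps Trim17, and Hist2h2aa1 and Hist2h3c1 overlap Gm20634. Likewise Hist2h2bb overlaps Gm42743, Hist1h2be and Hist1h1e overlap Gm11398, and Hist1h2ac overlaps Gm24991. The effect of these overlaps on the UMIs was not tested.

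Kept cells had at least 500 genes and at most 10% mitochondrial UMIs, and cells with more UMIs of the other side's markers were left out. They numbered 4308 to 28355 per library, with 36954140 to 187583982 UMIs in all and a median of 3374 to 35219 UMIs per cell, deepest in organoid replicate 1 and shallowest in tissue replicate 1. The filters kept 38.6 and 25.4% of the barcodes of tissue replicates 1 and 2. For each other library the kept share lay between 49.7 and 95.3%. Tissue barcodes left out held more UMIs than those kept (52100225 and 71880454 against 47033753 and 36954140). These left-out tissue barcodes had a mean mitochondrial share of 28.4 and 24.9%. The tissue values below therefore describe a minority of the tissue barcodes. No doublet caller was run. Between 13 and 141 cell barcodes were shared by any pair of libraries (0.217 to 0.980% of the smaller library). The 8 epithelial markers were detected in all 6 epithelial libraries (summed 7432 to 15772 CPM, counts per 1000000 UMIs), and the stroma was marked by the 6 fibroblast genes (7417 and 10743 CPM). Fibroblast genes also summed to 273 and 71.8 CPM in the assembloid epithelium, against 0.0213 to 0.0541 CPM in organoids and tissue, and 14.9 and 3.01% of assembloid epithelial cells held a Col3a1 UMI at equal depth against 0 in those 4 libraries. The 6 immune markers summed to 65.3 and 49.9 CPM in the assembloid epithelium, against 2.90 to 6.48 in organoids and tissue and 9.08 and 11.6 in stroma, and all 6 were higher in assembloids than in tissue in all kept, gated and other cells (median log2 4.59, 6.17 and 4.73). All 6 fibroblast genes were higher there too in each population. The part of this fibroblast and immune RNA in the assembloid values below was not tested.

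The clustered histone genes were highest in organoids. Summed over the 67 members, the level was 888 and 1107 CPM in the assembloid stroma, 1907 and 1238 in the assembloid epithelium, 5290 and 4891 in organoids and 1199 and 1065 in tissue. Both organoid libraries stood above all 6 others, whereas the ranges of the assembloid epithelium and the tissue did not overlap but lay close, and the stroma overlapped the tissue. As group means these were 997 ± 155 CPM (SD, n = 2) in stroma, 1573 ± 473 in assembloid epithelium, 5090 ± 283 in organoids and 1132 ± 95.1 in tissue. In sums over all kept cells, a larger share of cycling cells and more histone RNA per cell cannot be told apart, which is why gated and other cells are also given apart below.

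The classes made up these sums in different proportions. H2A, the class that pairs with H2B in the nucleosome, was 3972 and 4070 CPM in organoids, 1064 and 562 in the assembloid epithelium, 589 and 458 in tissue and 220 and 355 in stroma. A single gene, Hist1h2ap, held 52.6 and 65.8% of all clustered histone UMIs in organoids, against 37.3 and 29.4% in the assembloid epithelium, 29.4 and 24.9% in tissue and 12.3 and 18.9% in stroma. H2A and H2B, which enter the nucleosome together, were thus far apart in captured RNA, since H2B summed to 208 and 165 CPM in organoids. Within the epithelium the H2B sum had the opposite order to H2A, at 331 and 304 CPM in tissue and 278 and 298 in the assembloid epithelium. These were all above the organoids, and each stromal library was at 146 CPM. Hist1h2bc alone held 23.8 and 25.02% of the clustered histone UMIs in tissue and 0.711 and 0.608% in organoids. Most H2B genes did not follow the H2B sum: in the test described below, 13 of 16 were higher in organoids than in tissue.

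Linker histones, which bind the DNA between nucleosomes, were 579 and 291 CPM in organoids and 424 and 486 CPM in stroma, and 117 to 147 CPM in the 4 other epithelial libraries. H1 was the leading class in stroma, with 47.7 and 43.9% of the members' UMIs. H4 was 340 and 207 CPM in the assembloid epithelium, 299.8 and 210.2 in organoids, 118 and 116 in tissue and 71.7 and 90.3 in stroma, so that its ranges in assembloid epithelium and organoids overlapped. H3 had the lowest sums in every library but organoid replicate 1, where H2B was lower: they ran from 26.6 CPM in stroma replicate 1 to 231 in organoid replicate 1. The plot of class levels by library shows these proportions in all kept, gated and other cells.

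**Figure D1:**
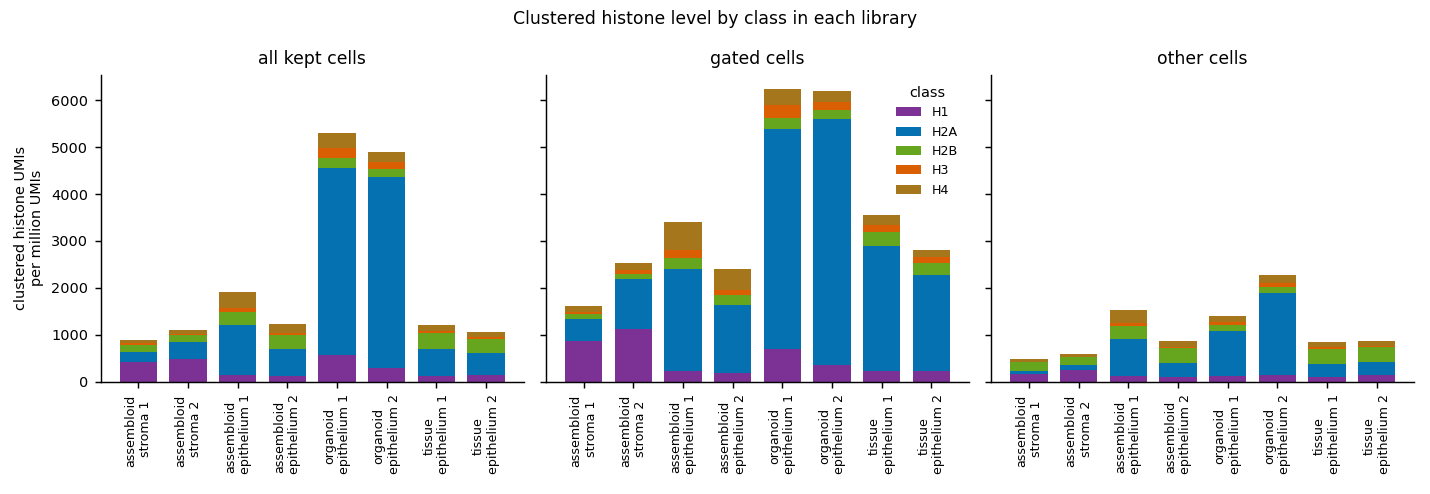
Summed clustered histone CPM (vertical axis) in each of the 8 libraries, stacked by class, for all kept cells (left), gated cells (middle) and other cells (right). H2A fills most of the organoid bars (3972 and 4070 of 5290 and 4891 CPM in all kept cells), and H1 is the largest segment in the stroma of the left panel (424 and 486 CPM).

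The share of cells in the gate also differed. It was 25.7 and 16.5% in stroma, 7.83 and 15.3% in the assembloid epithelium, 69.4 and 32.4% in organoids and 5.03 and 3.90% in tissue, and the widest 95% Wilson interval, which covers counting error only, was 68.1 to 70.7% in organoid replicate 1. Since deeper cells pass the gate more easily, each cell was also thinned to 2000 UMIs and gated at 1 UMI of both genes, which left 9.91 and 6.87, 7.23 and 6.20, 18.0 and 19.9, and 4.14 and 2.64% in the same order. Thinning brought the organoid libraries together, with both still above the other 6. It left out between 32 (stroma replicate 2) and 6987 (assembloid epithelium replicate 1) shallower cells per library.

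The clustered histone level was higher in gated cells than in the other cells of the same library, in all 8 libraries. The summed level was 1604 against 476 and 2538 against 594 CPM in the 2 stromal libraries, 3413 against 1523 and 2412 against 871 in the assembloid epithelium, 6234 against 1401 and 6200 against 2271 in organoids, and 3551 against 840 and 2817 against 871 in tissue. The ratio lay between 2.24 (assembloid epithelium replicate 1) and 4.45 (organoid replicate 1), with a mean of 3.41 ± 0.826 (SD, n = 8). Gated cells were also deeper, with median UMIs of 14824 to 40051 against 1335 to 24223 in other cells, and the gate genes themselves belong to the later cell cycle. Thinned cells were gated at 1 UMI of both genes, which is another gate. In organoid replicate 1 it held 856 cells against 3381 at full depth, so cells of the full-depth gate count there as other cells. After thinning, the mean number of clustered histone UMIs per 2000 was 3.88 and 6.06 in gated against 1.35 and 1.58 in other stromal cells, 5.35 and 4.94 against 3.36 and 2.22 in the assembloid epithelium, 15.3 and 11.2 against 8.52 and 7.24 in organoids, and 7.17 and 5.16 against 1.83 and 1.95 in tissue.

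H2A had the widest ratios of gated to other cells, from 2.78 to 11.2 over the 8 libraries, followed by H3 (1.92 to 5.74), H1 (1.66 to 5.37) and H4 (1.47 to 3.50). The H2B sum lay below 1 in the 6 libraries of stroma, assembloid epithelium and tissue (0.511 to 0.923) and above 1 in organoids (1.90 and 1.46). This was not so for most H2B genes taken singly. Only Hist1h2bc, the H2B gene with the most UMIs, and Hist3h2ba had a median ratio under 1 (0.476 and 0.886). Of 56 members with over 3 UMIs in both populations of every library, 16 were at least 2-fold higher in gated cells in all 8 (0.887% of all 11617 genes that met the same minimum did so), and 39 were higher in all 8 (25.2% of those genes). The rule used this contrast, so nothing is read from these shares.

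The 16 were 8 H2A genes, 3 H3 genes (Hist1h3b, Hist1h3c and Hist1h3f), 2 H2B genes (Hist1h2bb and Hist1h2bm), the linker histones Hist1h1b and Hist1h1e, and Hist1h4d. Hist1h2ap ranged from 3.04-fold in assembloid epithelium replicate 1 to 18.9-fold in tissue replicate 1. Hist1h1b, a somatic linker histone, ranged from 3.04-fold in organoid replicate 2 to 15.9-fold in tissue replicate 1, and Hist1h3b from 2.74-fold to 19.5-fold with a median of 10.5. In contrast, Hist1h1c, another somatic linker histone, was lower in gated cells in stroma, assembloid epithelium and tissue (0.523 to 0.857) and higher in organoids (1.92 and 1.31).

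Only Hist1h2bc, an H2B gene, was lower in gated cells in all 8 libraries (7.23% of the 11617 genes were), at 0.303 and 0.298 times in stroma, 0.481 and 0.471 in the assembloid epithelium, 0.649 and 0.745 in organoids and 0.482 and 0.465 in tissue. Hist2h2aa1, an H2A gene of the chromosome 3 locus, changed side by library: it was 4.85 and 5.79 times as high in gated cells of stroma and 2.76 and 1.77 times in organoids, and 0.650 and 0.460 times in the assembloid epithelium and 0.422 and 0.314 times in tissue. The remaining 11 members (Hist1h1t, Hist1h2aa, Hist1h2ah, Hist1h2ba, Hist1h2bp, Hist1h2bq, Hist1h3h, Hist1h4b, Hist1h4k, Hist2h2aa2 and Hist2h3c2) had too few UMIs in some population to be counted, and 3 of them (Hist1h2aa, Hist1h2ba and Hist1h2bq) had at most 2 UMIs in every library.

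**Figure D2:**
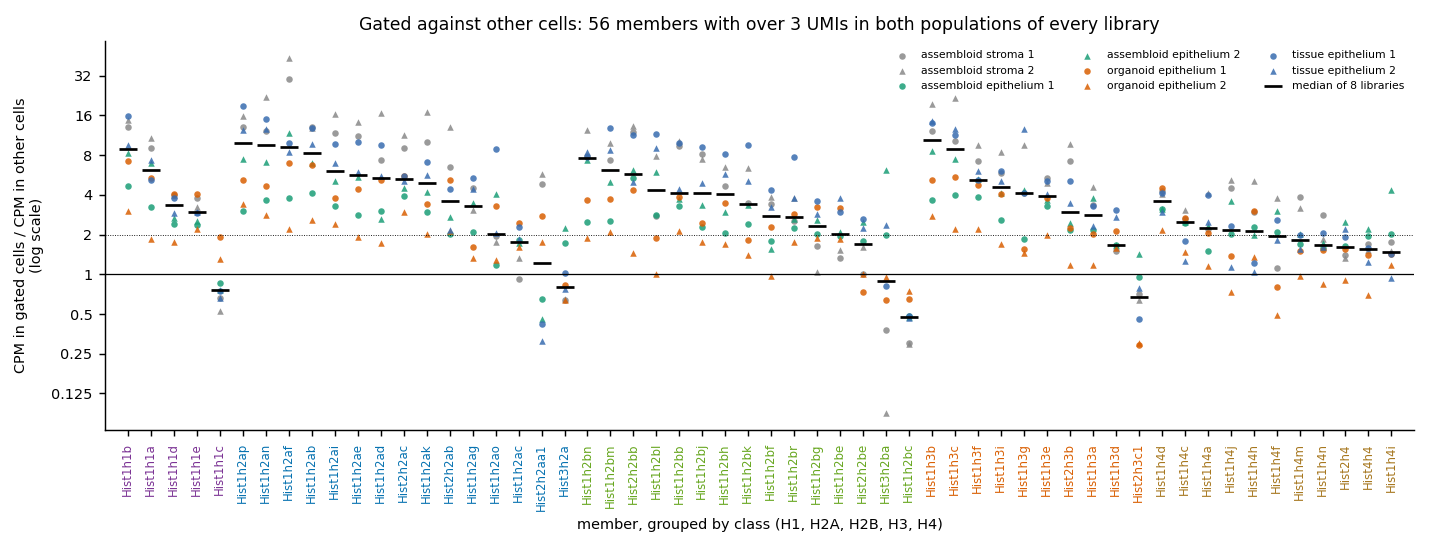
CPM in gated cells divided by CPM in other cells (log scale) for the 56 members with over 3 UMIs in both populations of every library, grouped by class, with 1 point per library and the median of the 8 as a bar. Most medians lie above 1, and Hist1h2bc lies below 1 in every library (median 0.476).

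The share of cells with a UMI of a member was taken at 2000 UMIs per cell and varied in order between members. Hist1h2ap was seen in 11.99 and 13.5% of stromal cells, 51.5 and 28.0% of assembloid epithelial cells, 70.6 and 78.1% of organoid cells and 20.3 and 27.3% of tissue cells. Among cells gated after thinning, at 1 UMI of both genes, these shares were 39.3 and 61.6, 66.7 and 64.2, 88.2 and 88.0, and 70.3 and 63.0%. The organoids were again highest. Free RNA can place a UMI in a cell that does not express the gene, and Krt8, an epithelial keratin, was seen in 1.34 and 0.302% of stromal cells against 80.9 to 97.5% of epithelial cells at the same depth.

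Hist1h2bc ran the other way, with a UMI in 37.9 and 36.0% of tissue cells, 32.2 and 31.4% of assembloid epithelial cells, 19.1 and 19.2% of stromal cells and 7.20 and 5.94% of organoid cells. Hist1h1b was seen in 35.2 and 18.4% of organoid cells and 18.2 and 15.5% of stromal cells, and in 1.36 to 2.74% of cells in the 4 other libraries. Among cells gated after thinning it was found in 60.1 and 61.2% of stromal cells and in 4.34 and 6.01% of assembloid epithelial cells. Clustered histone UMIs were spread unevenly: the 10% of cells with the most held 32.2 to 47.5% of them, and 8.73 to 39.5% of cells held none at this depth.

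Within the gate, cells were split by whether they held more UMIs of 17 S-phase genes or of 14 G2 and M genes. Slbp, the stem-loop binding protein, was higher in the S-phase side in all 8 libraries (1.41 to 2.61 times). The clustered histone sum was higher there only in stroma (1.34 and 1.48 times), with 0.935 and 0.988 in the assembloid epithelium, 0.960 and 0.927 in organoids and 0.641 and 0.740 in tissue. Hist1h4i was above 1 in 7 of the 8 libraries (0.920 to 1.52) and Hist1h1b in 6 (0.676 to 1.73). The S-phase sides were small in tissue, with 95 and 83 cells, and the split is a description only.

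Next, the epithelium of organoids was compared with that of tissue, to ask how culture of the epithelium alone differs from its state in the colon. UMIs were summed per library and tested with edgeR's quasi-likelihood test over all genes, calling genes at a Benjamini-Hochberg adjusted p under 0.05, and 62 of the 67 members had enough UMIs. In all kept cells 45 members were higher and 7 lower in organoids, or 52 of 62, where 47.5% of the 19377 genes tested were called, 24.4% higher and 23% lower. The median log2 fold change was 2.23 over the members and 0.06 over all genes tested. By class, 4 of 5 H1, 13 of 16 H2A, 13 of 16 H2B, 9 of 12 H3 and 6 of 13 H4 members were higher, and 1, 2, 2, 2 and 0 were lower. Shares of all genes called are given for the main fits only. Counts of members under other fits are therefore not read as particular to the members. With each library left out in turn the count ran from 42 to 53, and of 25 calls among the members named here all but Hist1h4c held.

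Hist1h1b had the largest difference of these members. It was at 361 and 158 CPM in organoids, 18.3 and 14.7 in tissue, 13.7 and 8.01 in the assembloid epithelium and 241 and 236 in stroma. Both organoid libraries lay far above the other epithelium, and exceeded tissue 19.6-fold (log2 4.29 ± 0.54 SE, edgeR adjusted p = 0.00033). Hist1h1a, at 20.5 and 9.71 CPM in organoids and 1.68 and 2.35 in tissue, was higher by log2 3.22 ± 0.53, and Hist1h1d, at 34.6 and 23.2 against 6.59 and 6.52 CPM, by 2.42 ± 0.36 (edgeR adjusted p = 0.0013 and 0.00079). Hist1h1e was at 139 and 79.7 CPM in organoids and 24.5 and 25.5 in tissue (log2 2.42 ± 0.38, edgeR adjusted p = 0.0011).

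Hist1h1c was the linker histone that fell. It was at 24.6 and 20.3 CPM in organoids, 65.8 and 97.7 in tissue, 48.4 and 62.7 in the assembloid epithelium and 63.0 and 109 in stroma, and both organoid libraries were below all others (log2 fold change −1.60 ± 0.28, edgeR adjusted p = 0.0018). Hist1h1t, the testis-specific linker histone, was near the limit of detection with 22, 16, 5, 7, 0, 0, 5 and 2 UMIs over the 8 libraries, organoids being the 2 at 0, and was not tested. For a count of 0, up to 3 UMIs per library are allowed by counting error.

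Among core histones, Hist1h2ap rose from 353 and 265 CPM in tissue to 2784 and 3220 in organoids (11.5-fold, log2 3.52 ± 0.44, edgeR adjusted p = 0.00032), and Hist1h2ae from 87.4 and 73.4 to 767 and 565 CPM (log2 3.33 ± 0.49). Hist1h2ab was at 116 and 69.8 against 15.7 and 10.9 CPM (3.10 ± 0.45). The H2B genes Hist1h2bj, Hist1h2br and Hist1h2be rose by log2 2.44, 2.63 and 1.74, and Hist1h2bj stood at 38.3 and 32.3 CPM in organoids against 7.61 and 7.96 in tissue. All 4 leading H3 genes rose: Hist1h3b by log2 3.59 ± 0.47, Hist1h3c by 3.54 ± 0.59, Hist1h3f by 3.06 and Hist1h3e by 2.68. Hist1h3c, the highest of them, was at 70.6 and 34.9 CPM in organoids and 6.44 and 4.74 in tissue.

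H4 members differed least. Hist1h4d was higher at 158 and 93.1 against 25.2 and 20.3 CPM (log2 2.76 ± 0.44), and Hist1h4c at 24.3 and 20.3 against 13.5 and 12.3 CPM (1.05 ± 0.38, edgeR adjusted p = 0.048), a call lost without any 1 of the organoid or tissue libraries. Hist1h4h, at 37.6 and 25.7 against 24.3 and 18.8 CPM, and Hist1h4i, at 36.5 and 29.2 against 24.6 and 32.1 CPM, did not pass (log2 0.83 ± 0.36 and 0.48 ± 0.33, edgeR adjusted p = 0.09 and 0.25).

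The 7 members that fell in organoids were Hist1h1c, Hist1h2bc, Hist2h2aa1, Hist2h2be, Hist2h3c1, Hist2h3c2 and Hist3h2a. Hist1h2bc was at 37.6 and 29.7 CPM in organoids, 286 and 266 in tissue, 213 and 257 in the assembloid epithelium and 124 and 122 in stroma. Its organoid levels were below all others, by log2 −2.77 ± 0.28 from tissue (edgeR adjusted p = 0.00011). Hist2h2aa1 was at 24.7 and 22.1 CPM in organoids against 83.0 and 66.9 in tissue (−1.42 ± 0.25, edgeR adjusted p = 0.0018), and Hist3h2a at 2.70 and 2.32 against 7.91 and 8.98 CPM (−1.49 ± 0.28). The pair of H3 genes Hist2h3c1 and Hist2h3c2 was low throughout, with 33 and 32 and with 20 and 12 UMIs in the organoid libraries, and differed by −2.97 ± 0.40 and −2.99 ± 0.42. Hist2h2be was at 0.581 and 1.17 CPM in organoids and 2.98 and 3.11 in tissue (−1.61 ± 0.38). These genes lie mainly outside the chromosome 13 cluster, with 4 on chromosome 3, 2 on 13 and 1 on 11, whereas of the 45 that rose 42 lie on chromosome 13 and 3 on chromosome 3.

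**Figure D3:**
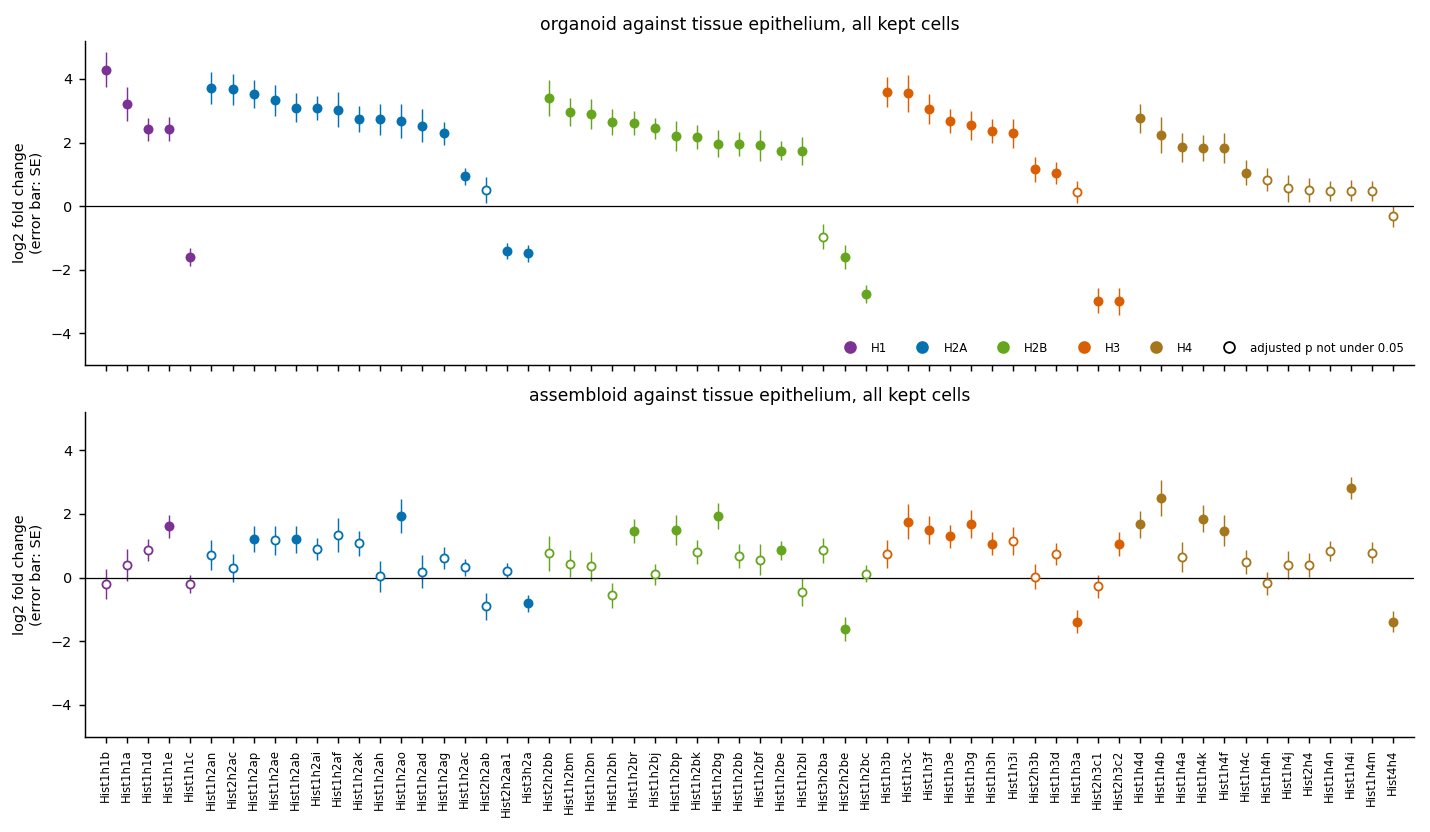
Log2 fold change with its SE for the 62 tested members in organoid against tissue epithelium (top) and assembloid against tissue epithelium (bottom), in all kept cells, coloured by class, with open points where the adjusted p was not under 0.05. In the top panel 45 members lie above 0 with a call and 7 below, and in the bottom panel 19 and 4.

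The same tests were run within gated cells and within other cells, since organoids had more cells in the gate. Among gated cells 22 members were higher and 5 lower in organoids than in tissue (27 of 62, where 35.4% of 16525 genes were called, 18.3% higher and 17.1% lower), with a median log2 fold change of 0.78. This count fell to 7 without organoid replicate 1, 8 without tissue replicate 1 and 5 without tissue replicate 2, and of 18 calls among named members only those of Hist1h1b, Hist1h2bc and Hist2h2be held with every library left out. The tissue sums rested on 236 and 168 gated cells. Among other cells 37 were higher and 7 lower (44 of 62, where 43.0% of 17318 genes were called, 21.4% higher and 21.6% lower), with a median of 1.70, and the count was 27 without organoid replicate 2 and 23 without either tissue replicate, with 14 of 22 named calls held throughout. In both populations 20 members were higher and 5 lower. The other cells also differed in cell cycle genes. All 17 S-phase genes and 13 of 14 G2 and M genes were higher there in organoids (median log2 2.51 and 2.63). The part of these differences in the members' values was not tested.

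Hist1h1b stayed apart inside the gate, at 434 and 204 CPM in organoids, 97.6 and 75.7 in tissue, 36.5 and 24.3 in the assembloid epithelium and 581 and 753 in stroma (organoids against tissue log2 2.30 ± 0.42, edgeR adjusted p = 0.0017). Hist1h2ap was at 3304 and 4214 CPM in gated organoid cells and 1976 and 1534 in gated tissue cells (1.45 ± 0.35, edgeR adjusted p = 0.0083, lost without either tissue library), and at 640 and 1230 against 105 and 124 CPM in other cells (3.09 ± 0.60, edgeR adjusted p = 0.004). Hist1h2bc remained lower in organoids in both, at 34.0 and 26.7 against 148 and 131 CPM in gated cells (−1.81 ± 0.26, edgeR adjusted p = 0.00031) and 52.4 and 35.8 against 307 and 281 CPM in other cells. Hist2h2aa1 was lower in organoids among other cells, at 10.2 and 14.6 against 89.9 and 71.8 CPM (log2 −2.62), with 28.2 and 25.9 against 38.0 and 22.5 CPM in gated cells (0.20 ± 0.32, not called).

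Whether the ratio of gated to other cells differed between groups was tested directly, with each library as its own block. Between organoids and tissue it differed for 11 of the 62 members (18.0% of 18064 genes were called, 13.4% higher and 4.67% lower), and the median over all genes was 0.13. Cell cycle genes differed as well, and the part of this in the members' ratios was not tested. The ratio was lower in organoids for all 17 S-phase genes (median −1.54) and for 10 of 14 G2 and M genes (median −1.85). Hist2h2aa1, Hist1h1c and Hist1h2bc had higher ratios in organoids (log2 difference 2.95 ± 0.30, 1.58 ± 0.21 and 0.95 ± 0.08, edgeR adjusted p = 0.00087, 0.0023 and 0.0005). Lower ratios in organoids were found for 8 others, of which Hist1h2ap, at −1.47 ± 0.41, was the most abundant (edgeR adjusted p = 0.046). The count was 27 without assembloid replicate 1, 22 without assembloid replicate 2, 7 without organoid replicate 2, 3 without tissue replicate 1 and 5 without tissue replicate 2, and the calls of Hist2h2aa1, Hist1h1c and Hist1h2bc held with each library left out.

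Organoids were then compared with assembloid epithelium, which asks what the presence of stroma and the change of medium go with. This comparison shares its organoid libraries with the one above, and the next shares its tissue and assembloid libraries. In all kept cells 36 members were higher and 7 lower in organoids (43 of 62, where 54.4% of 19377 genes were called, 24.9% higher and 29.4% lower). The median log2 fold change was 1.18 over the members and −0.01 over all genes, and the class medians were 1.56 for H1, 1.79 for H2A, 1.32 for H2B, 1.23 for H3 and 0.16 for H4. Without organoid replicate 1 the count was 26, and of 24 calls among named members 16 held with every library left out.

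Hist1h1b, at 361 and 158 against 13.7 and 8.01 CPM, was 22.5-fold higher in organoids (log2 4.49 ± 0.55, edgeR adjusted p = 0.0003), and Hist1h2ap, at 2784 and 3220 against 712 and 364 CPM, was higher by log2 2.31 ± 0.42 (edgeR adjusted p = 0.002). Hist1h2bc was lower in organoids (−2.89 ± 0.28, edgeR adjusted p = 0.00012), as were Hist2h2aa1 at 24.7 and 22.1 against 71.3 and 63.3 CPM (−1.64 ± 0.25) and Hist1h1c (−1.40 ± 0.28, edgeR adjusted p = 0.003). Hist2h3c2 (−4.04 ± 0.42), Hist2h3c1 (−2.70) and Hist3h2ba, an H2B gene of chromosome 11, at 0.485 and 0.688 against 1.81 and 1.93 CPM (−1.82 ± 0.40), were lower too. The last of the 7 was Hist1h4i, described next. Hist4h4, the H4 gene of chromosome 6, was higher in organoids at 3.44 and 3.61 against 1.84 and 1.19 CPM (1.07 ± 0.33, edgeR adjusted p = 0.024, lost without assembloid replicate 2 or organoid replicate 1).

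Within gated cells 18 members were higher and 9 lower in organoids (27 of 62, where 46.9% of 16525 genes were called, 21.2% higher and 25.7% lower), with a count of 15 without organoid replicate 1 and 10 of 16 named calls held with each library left out. Within other cells 16 were higher and 6 lower (22 of 62, where 46.0% of 17318 genes were called, 20.1% higher and 25.9% lower), with counts of 42 without assembloid replicate 1 and 9 without either organoid replicate, and 7 of 13 named calls held. In both populations 14 were higher and 5 lower. Inside the gate all 17 S-phase genes were also higher in organoids (median log2 1.43). Among other cells 16 of the 17 (median 2.06) and 4 of 14 G2 and M genes (median 0.67) were higher. The part of these cell cycle differences in the members' values was not tested. The ratio of gated to other cells was higher in organoids for Hist1h1c, Hist2h2aa1 and Hist1h2bc (3 of 62, where 3.97% of 18064 genes were called, 2.67% higher and 1.3% lower), by log2 1.19, 2.22 and 0.76. That count was 12 without assembloid replicate 1, 6 without assembloid replicate 2, and 0 without organoid replicate 1 or either tissue replicate, where edgeR gave 15, 10 and 10 members at an unadjusted p under 0.05.

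The assembloid epithelium was then set against tissue, to ask how near the rebuilt mucosa comes to the colon. In all kept cells 19 members were higher and 4 lower in assembloids (23 of 62), below the 50.7% of 19377 genes called, 27.3% higher and 23.4% lower, with a median log2 fold change of 0.74 over the members and 0.03 over all genes. The count was 8 without assembloid replicate 1, 38 without assembloid replicate 2, 10 without tissue replicate 1 and 6 without tissue replicate 2. Of 16 calls among named members, those of Hist1h4i, Hist1h2bg, Hist2h2be and Hist4h4 held with each library left out.

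Hist1h4i was among the members called in the assembloid epithelium against both tissue and organoids. It was at 183 and 121.5 CPM there, 24.6 and 32.1 in tissue, 36.5 and 29.2 in organoids and 33.5 and 39.3 in stroma. Both assembloid epithelial libraries lay above all 6 others, which overlapped. The assembloid epithelium exceeded tissue 7.04-fold (log2 2.82 ± 0.35, edgeR adjusted p = 0.00031), and organoids were below it by log2 −2.33 ± 0.34 (edgeR adjusted p = 0.00069). Hist2h3c2 was also higher there, at 1.88 and 1.66 CPM against 1.17 and 1.06 in tissue (log2 1.05 ± 0.37, edgeR adjusted p = 0.042, lost without assembloid replicate 1 or either tissue replicate) and 0.107 and 0.129 in organoids. Hist1h3a and Hist4h4, described below, were lower there than in tissue, and organoids were above the assembloid epithelium by 1.84 ± 0.36 and 1.07 ± 0.33.

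In gated cells Hist1h4i was at 306 and 294 CPM in the assembloid epithelium, 33.3 and 30.4 in tissue, 38.7 and 30.8 in organoids and 46.0 and 52.2 in stroma, 12.8-fold above tissue (3.68 ± 0.29, edgeR adjusted p = 4.6e-06). In other cells the values were 151 and 67.4 against 23.2 and 32.3 CPM (2.44 ± 0.42, edgeR adjusted p = 0.0021). The ratio of gated to other cells was also higher in assembloids than in tissue (log2 1.496 ± 0.38, edgeR adjusted p = 0.043), but this call was lost without either organoid or either tissue replicate. At 2000 UMIs per cell, Hist1h4i was seen in 24.6 and 14.5% of assembloid epithelial cells and in 4.14 to 7.15% of the cells of each other library. The stroma itself held 33.5 and 39.3 CPM, below the assembloid epithelium, while fibroblast markers were at 273 and 71.8 CPM in that epithelium and 7417 and 10743 CPM in stroma. Immune markers were at 65.3 and 49.9 CPM in that epithelium and at most 11.6 CPM in each other library, and were higher than in tissue inside the gate as well (6 of 6). Their part in the Hist1h4i difference was not tested.

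**Figure D4:**
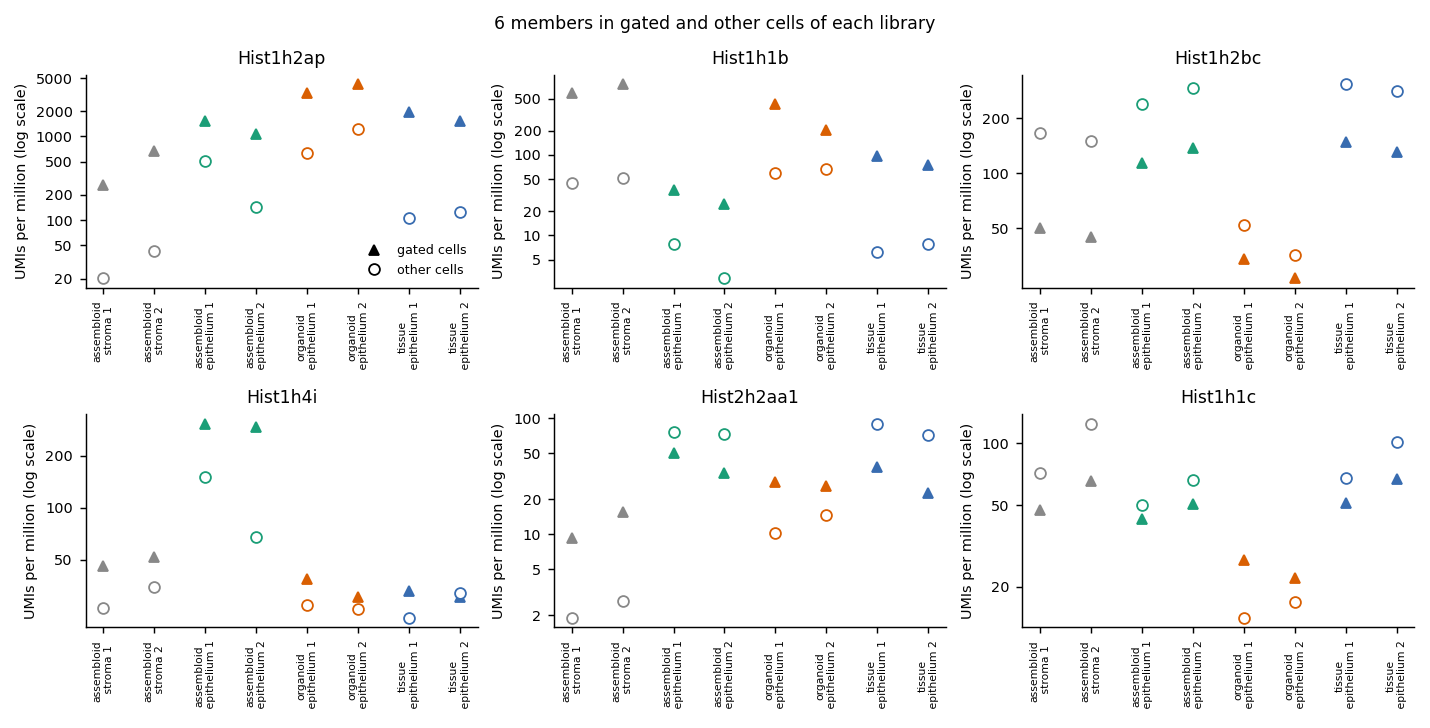
CPM (log scale) of 6 members in gated cells (triangles) and other cells (open circles) of each library. Hist1h4i is highest in the assembloid epithelium in both populations (306 and 294 CPM in gated cells), Hist1h2bc is lower in gated than in other cells in every library, and Hist1h2ap is higher in gated cells in every library.

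The other members called between assembloids and tissue differed less. Hist1h1e was higher at 67.5 and 49.1 against 24.5 and 25.5 CPM (log2 1.61 ± 0.37, edgeR adjusted p = 0.0072, lost without tissue replicate 1), and Hist1h4d at 71.6 and 38.9 against 25.2 and 20.3 CPM (1.68 ± 0.43, edgeR adjusted p = 0.011, lost without assembloid replicate 1 or tissue replicate 2). Hist1h2ap, at 712 and 364 against 353 and 265 CPM, was higher by 1.21 ± 0.41 (edgeR adjusted p = 0.035). Its call was lost without assembloid replicate 1 or either tissue replicate, as were those of Hist1h2ab, Hist1h2be, Hist1h3c, Hist1h3e and Hist1h3f. Hist1h2bg was at 11.7 and 6.82 against 3.91 and 2.46 CPM (1.93 ± 0.41, edgeR adjusted p = 0.0048).

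Those lower in assembloids were Hist2h2be at 0.789 and 0.730 against 2.98 and 3.11 CPM (−1.62 ± 0.38, edgeR adjusted p = 0.0073), Hist4h4 at 1.84 and 1.19 against 5.23 and 5.17 CPM (−1.38 ± 0.34), Hist1h3a at 2.45 and 1.43 against 5.95 and 7.41 CPM (−1.38 ± 0.36, lost without tissue replicate 2) and Hist3h2a at 3.55 and 3.92 against 7.91 and 8.98 CPM (−0.81 ± 0.27, lost without any 1 of the 4 libraries compared). Hist1h1b, Hist1h1c, Hist1h2bc and Hist2h2aa1, which were called between organoids and tissue, did not pass here, with log2 differences of −0.20 ± 0.48, −0.20 ± 0.27, 0.13 ± 0.26 and 0.22 ± 0.24 and edgeR adjusted p of 0.74, 0.56, 0.71 and 0.47.

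Within gated cells 7 members were higher and 6 lower in assembloids than in tissue (13 of 62, where 43.4% of 16525 genes were called, 23.6% higher and 19.8% lower), and the count was 6 without either tissue replicate. Within other cells 18 were higher and 4 lower (22 of 62, where 48.8% of 17318 genes were called, 26.7% higher and 22.2% lower), and the count was 11 and 45 without assembloid replicates 1 and 2, 13 without either organoid replicate, and 7 and 5 without tissue replicates 1 and 2. These other cells differed in cell cycle genes too, with 13 of 14 G2 and M genes (median log2 1.92) and 5 of 17 S-phase genes (median 0.64) higher in assembloids. Among named members, Hist1h1e, Hist1h2bg, Hist1h4d and Hist1h4i were higher in both gated and other cells, and Hist1h3a and Hist2h2be lower in both. With each library left out, 3 of 10 named calls held in gated cells and 4 of 15 in other cells, and of these 6 members Hist1h4i alone held in both. In gated cells the calls of Hist1h1e and Hist1h4d were lost without assembloid replicate 1 or either tissue replicate, that of Hist1h2bg without assembloid replicate 1 or tissue replicate 2, and that of Hist2h2be without either tissue replicate. In other cells Hist2h2be was lost without either tissue replicate and Hist1h3a without organoid or tissue replicate 2. With the main settings, the ratio of gated to other cells differed for Hist1h4i and Hist3h2a alone (2 of 62, where 12.2% of 18064 genes were called, 8.84% higher and 3.34% lower, with an all-gene median of 0.14). The ratio was also lower in assembloids for 5 of 17 S-phase genes (median −0.80) and 5 of 14 G2 and M genes (median −1.22). The part of these cell cycle differences in the members' values was not tested. Other settings moved the count of members in both directions, as listed in the closing section on processing. That count was 7 and 19 without assembloid replicates 1 and 2, 1 without organoid replicate 1, and 0 without tissue replicate 1 or 2, where edgeR gave 5 and 14 members at an unadjusted p under 0.05.

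The stroma was set beside the epithelium without a test, since its files name an older version of the counting software. The newer version counts intronic reads by default and the older did not, and the setting used is not given in the sources used here, so CPM may not mean the same in both. Stromal cells were led by linker histones, with Hist1h1b at 241 and 236 CPM, Hist1h1e at 94.2 and 109.7 and Hist1h1c at 63.0 and 109. Hist3h2a was listed at 17.6 and 18.5 CPM there and 2.32 to 8.98 in the epithelial libraries, and Hist2h2aa1 at 4.57 and 6.02 CPM and 22.1 to 83.0.

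The annotated ends of the transcripts were compared with these values. Each member's gated to other ratio was its median over the libraries with more than 3 UMIs in both populations. Of the 22 members whose transcript ended just after the stem-loop, 19 had such UMIs in every library. The median over all of them with a ratio was 3.42. Their median organoid to tissue log2 fold change was 2.24 over 21 tested, with 16 higher and 1 lower. Of all genes tested in that comparison, 24.4% were higher and 23% lower. Of the 22 whose transcript ran on past it, 20 had such UMIs in every library (median over all with a ratio 2.09). Their median fold change was 1.05 over 21 tested, with 12 higher and 4 lower. For members annotated without the loop, the median over all with a ratio was 2.98 with a 3′ UTR and 4.93 with coding sequence only. In the same order, 8 of the 10 and 9 of the 13 had such UMIs in every library. The median fold change was 2.54 over 9 tested, with 7 higher and 2 lower, and 2.73 over 11, of which 10 were higher. Of the 7 members that fell in organoids, 4 extended past the loop and 4 held AATAAA near the transcript's end, with a median transcript length of 1560 bases, and of the 45 that rose 12 and 4 did so, with a median of 508 bases. The ends are those of the annotation, and the ends of the captured molecules were not measured. Some annotated 3′ UTRs were too short to hold the loop and coding-only annotations have none, so neither class stands for RNAs that lack it.

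Many H2A and H2B genes lie back to back and share a promoter region. Of 12 such pairs with starts within 400 bases, both genes were tested in 10, and in 2 of these the partners had opposite signs between organoids and tissue. Hist1h2ac differed by log2 0.93 ± 0.27 (edgeR adjusted p = 0.021) and Hist1h2bc, 251 bases away, by −2.77, while Hist2h2ac differed by 3.67 ± 0.48 (edgeR adjusted p = 0.00039) and Hist2h2be, 239 bases away, by −1.61. Hist1h2ac and Hist2h2ac were chosen for this after their values were seen. Their promoters are shown because each runs from 1 partner's start towards the other's. They were read from RefSeq (GRCm38.p6), 250 bases before to 50 after the start, on the gene's strand, with capitals marking CCAAT, ATTTGCAT (the octamer bound by Oct factors), TATAAA and TTTCGCGC (a site of the E2F kind) on either strand.
Hist1h2ac, chr13:23683910-23684209, minus strand: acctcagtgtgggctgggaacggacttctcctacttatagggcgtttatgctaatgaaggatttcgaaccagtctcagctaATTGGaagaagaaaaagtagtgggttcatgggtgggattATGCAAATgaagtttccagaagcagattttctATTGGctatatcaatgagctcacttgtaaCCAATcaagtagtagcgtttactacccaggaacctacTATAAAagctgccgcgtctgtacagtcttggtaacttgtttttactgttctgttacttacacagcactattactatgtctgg
Hist2h2ac, chr3:96220831-96221130, minus strand: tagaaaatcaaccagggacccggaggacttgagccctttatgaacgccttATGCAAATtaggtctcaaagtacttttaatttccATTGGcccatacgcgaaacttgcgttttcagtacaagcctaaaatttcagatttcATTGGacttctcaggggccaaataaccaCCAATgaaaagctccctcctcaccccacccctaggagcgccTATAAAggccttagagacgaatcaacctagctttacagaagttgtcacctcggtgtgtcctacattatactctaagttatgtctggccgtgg

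Both promoters held the octamer, CCAAT and TATAAA. A promoter was found for 60 members by Ensembl identifier, or else by symbol or synonym. It had to lie on the same chromosome and strand, with its start within 1000 bases of the annotated start. ATTTGCAT was in 13 of them (21.7%, against 1.75% of all 27025 promoters of the same length), 7 of 17 H2A and 6 of 16 H2B genes and no H1, H3 or H4 gene. CCAAT was in 51 (85 against 37.9%), TATAAA in 34 (56.7 against 14.2%) and TTTCGCGC in 9 (15.0 against 0.318%). Promoters of back-to-back partners can cover the same bases, so these counts are of promoters and not of separate sites. For example, Hist1h2an and Hist1h2bp share a TTTCGCGC site, and Hist1h2ae and Hist1h2bg share an octamer. TATAAA was found in 1 of 5 members that fell in organoids and in 25 of 42 that rose, and the octamer in 1 of 5 and 10 of 42. A match is a description of letters, not of binding.

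The genes that process histone mRNA and carry histones were also read, as lists, first in all kept cells, where 24.4, 24.9 and 27.3% of all genes tested were higher in organoids against tissue, organoids against assembloids and assembloids against tissue. Of 12 histone mRNA processing genes, 10 rose and none fell in organoids against tissue (median log2 1.28), 10 were higher in organoids than in assembloids, and 1 was higher in assembloids than in tissue. Slbp was at 131 and 109 CPM in organoids, 48.7 and 54.7 in tissue, 27.5 and 27.8 in the assembloid epithelium and 80.7 and 78.6 in stroma, and was lowest within the epithelium in assembloids (organoids against tissue 1.48 ± 0.25, edgeR adjusted p = 0.0014). Zfp473, a zinc finger protein of the U7 processing complex, and Srrt, which links the cap complex to processing, had the largest called differences between organoids and tissue (2.24 ± 0.40 and 1.77).

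All 14 histone chaperone genes were higher in organoids than in tissue (median 1.90), among them Nap1l1, a chaperone of H2A and H2B (3.49), and Asf1b, a chaperone of H3 and H4 (3.08 ± 0.30). Between assembloids and tissue 3 were higher and 1 lower. Of 11 histone variant genes outside the clusters, 4 were higher and 1 lower in organoids than in tissue (median 0.45), led by Cenpa, the centromeric H3 (2.91 ± 0.33), and H2afz, the H2A.Z gene (2.32 ± 0.38). All 17 S-phase genes were higher in organoids, against tissue (median 2.41) and against the assembloid epithelium (2.24), and 4 were higher in assembloids than in tissue. The 14 G2 and M genes were all higher in organoids than in tissue, and 13 were higher in assembloids than in tissue. Inside the gate, where 23.6% of all genes were higher in assembloids than in tissue and 19.8% lower, 7 of 17 S-phase genes were called and all 7 were lower (median −0.52), 2 of 12 histone mRNA processing genes were called and both were lower, and 4 of 14 G2 and M genes were called and all 4 were higher. Of the chaperone genes 3 were higher and 4 lower there, and of the variant genes 1 was higher and 2 lower. Organoids against tissue inside the gate, where 18.3% of all genes were higher, had 12 S-phase, 6 processing, 11 chaperone, 3 variant and 7 G2 and M genes higher, and 1 variant gene lower. Against assembloids inside the gate 21.2% of all genes were higher in organoids. Higher there were 17 S-phase, 8 processing, 9 chaperone, 3 variant and 3 G2 and M genes. Lower were 3 variant genes and 1 G2 and M gene. The part of these cell cycle differences in the members' values was not tested beyond the gated and other cells given above.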

How the data were processed

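Mouse colon cells were profiled with the Chromium Single Cell 3′ v3 kit in 8 libraries, 2 per group, with groups taken from the sample titles. The authors deposited filtered matrices of UMI counts (genes by cells). Per the file headers, Cell Ranger 6.0.1 made the stromal counts and 7.1.0 the epithelial counts, while the submitters' processing notes name Cell Ranger 6, and the build was mm10 (GRCm38). The deposited counts are whole numbers and not normalized, and 0 columns belonged to unmapped samples. The UMIs kept per library, 36954140 to 187583982, set the precision of sums.

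The members and lists were chosen with earlier results of these data known. Kept cells had at least 500 genes and at most 10% mitochondrial UMIs. In epithelial libraries a cell was left out when its UMIs of fibroblast, immune, endothelial, glia and neuron markers exceeded those of epithelial markers, and in stromal libraries when epithelial markers exceeded the rest. CPM are counts per 1000000 UMIs of the same cells, without scaling by length, since 1 UMI is counted per molecule end. UMIs summed per library were tested with edgeR 4.0.16 (filterByExpr, TMM, quasi-likelihood, limma 3.58.1, R 4.3.3) in 1 fit over the 3 epithelial groups, with Benjamini-Hochberg adjustment over all genes tested and calls under 0.05. SE were derived from the fold change and its F statistic. The difference in gate ratio was an interaction with each library as a block. DESeq2 1.42.0, RLE factors, no count filter, other cell filters, another gate, the replicate block and each library left out were the alternatives. The fits were tested on simulated data. Thinning drew 2000 UMIs per cell without replacement. The tables were made in Python 3.11.15 with pandas 2.3.3, scipy 1.17.1 and numpy 2.4.6, and the figures with matplotlib 3.10.9.

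Named members were each H1 gene with at least 3 UMIs in a library, the 4 highest in each core class, those called against their class median, and the 2 largest called differences of a list. Of the listed identifiers 99.85% were in GENCODE M21, from which coordinates, transcript ends and stem-loops were read. Protein sequences were not used here.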

Additional observations from a re-analysis of the deposited data

Results flagged for a closer look

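The ratio of gated to other cells differed between epithelial groups, by edgeR's interaction test, for 16 combinations of member and comparison, given as log2 differences with edgeR's Benjamini-Hochberg adjusted p over all genes. These were 2 of 62 members in assembloids against tissue, 11 of 62 in organoids against tissue and 3 of 62 in organoids against assembloids. Of the 18064 genes tested 12.2, 18.0 and 3.97% were called, so with both directions together the members' shares were near or below those of all genes. By direction, organoids against tissue had 3 members higher and 8 lower, where 13.4% of all genes were higher and 4.67% lower. In assembloids against tissue the differences were 1.32 ± 0.29 for Hist3h2a (adjusted p = 0.028) and 1.496 ± 0.38 for Hist1h4i (0.043), and both calls were lost without organoid replicate 1 or either tissue replicate, that of Hist1h4i also without organoid replicate 2. In organoids against assembloids they were 2.22 ± 0.27 for Hist2h2aa1 (0.013), 0.76 ± 0.08 for Hist1h2bc (0.012) and 1.19 ± 0.19 for Hist1h1c (0.024), and all 3 calls were lost without organoid replicate 1 or either tissue replicate, that of Hist1h2bc also without organoid replicate 2. In organoids against tissue, Hist2h2aa1 (2.95), Hist1h1c (1.58) and Hist1h2bc (0.95) had higher ratios in organoids, with calls that held with each library left out. Lower ratios in organoids than in tissue were found for Hist1h2bl (−2.48), Hist1h2ah (−1.89), Hist1h2bk (−1.80), Hist1h3h (−1.73), Hist1h2an (−1.53), Hist1h2ap (−1.47), Hist1h2ag (−1.35) and Hist1h2bj (−1.33), each with a call that was lost when at least 1 library was left out.

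Barcodes left out by the filters also held clustered histone UMIs. Their level was 876 and 1254 CPM in the stromal libraries, 1229 and 984 in the assembloid epithelium, 1966 and 1972 in organoids and 813 and 897 in tissue, where kept cells had 888 and 1107, 1907 and 1238, 5290 and 4891, and 1199 and 1065 CPM. Organoids were the highest of the 4 groups in both sets of barcodes.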

How the results depend on the processing

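Of 2570 alternative values for 182 named differences, 2255 kept their direction and call, 302 lost and 11 gained a call, and 2 reversed, both uncalled: Hist1h1b in assembloids against tissue ranged from −0.75 to 0.20 with 1 library left out (0.20 without assembloid replicate 2), and Hist1h1c from −0.48 to 0.11 (0.11 without tissue replicate 2). With at most 5% mitochondrial UMIs, members called were 15 (assembloid against tissue, all kept cells), 12 (same, other cells), 11 (organoid against tissue, gated), 0 (gate ratio, assembloid against tissue, 14 at an unadjusted p under 0.05 by edgeR, 8 adjusted by DESeq2 at the 10% limit) and 6 (gate ratio, organoid against tissue), the summed level was 5593 CPM in organoids and 1359 in tissue, the tissue gate ratio 5.12 and its gated share 1.93%. With no count filter, calls in assembloid against tissue were 21 (gated), 35 (other) and 10 (gate ratio), and the gate ratio differed for 17 members in organoid against tissue and 6 in organoid against assembloid. For the gate ratio in assembloid against tissue, organoid against tissue and organoid against assembloid, DESeq2 gave 8, 17 and 4 and RLE factors 1, 13 and 4. All passing cells gave 4 in assembloid against tissue and 5 in organoid against assembloid, at least 1000 genes 12 and 19 in both tissue comparisons, the gate at 1 UMI 1 and 5, and cells of at least 5000 UMIs 17, 21 and 5. The gated share was 7.48 (1 UMI), 7.78 (1000 genes) and 9.59% (5000 UMIs) in tissue and 21.7 (1 UMI) and 19.65% (5000 UMIs) in assembloid epithelium, and thinned 8.39 in stroma, 18.9 in organoids and 3.39 in tissue. The gate ratio of tissue was 2.84 at 1 UMI, and thinned it was 1.91 in assembloid epithelium and 1.67 in organoids.

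With each library left out, counts ranged in assembloid against tissue from 6 to 38 (all kept), 6 to 19 (gated), 5 to 45 (other) and 0 to 19 (gate ratio), in organoid against assembloid from 26 to 49, 15 to 39, 9 to 42 and 0 to 12, and in organoid against tissue from 42 to 53, 5 to 36, 23 to 49 and 3 to 27. Leaving out 1 library of a group, the summed CPM was 888 to 1107 (stroma), 1238 to 1907 (assembloid epithelium), 4891 to 5290 (organoids) and 1065 to 1199 (tissue), the gate ratio 3.37 to 4.27, 2.24 to 2.77, 2.73 to 4.45 and 3.23 to 4.23, and the gated share 16.5 to 25.7, 7.83 to 15.3, 32.4 to 69.4 and 3.90 to 5.03%. The library left alone in its group was assumed to vary like the others. The share of all genes called is not given for these alternative fits, so a moved count is not read as particular to the members. RLE factors moved the split of gated calls in assembloid against tissue from 7 higher and 6 lower to 10 and 5. Replicate numbers are shared by the groups, but the correlation of same-numbered deviations was −0.0188 to 0.0560 over 19316 genes, so they were not taken as pairs. With the replicate block, calls were 30, 53 and 48 in all kept, 19, 33 and 31 in gated and 19, 46 and 23 in other cells (assembloid against tissue, organoid against tissue, organoid against assembloid).

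Each group has 2 libraries, the tissue libraries hold the fewest UMIs in all and the fewest gated cells, and counts near 3 UMIs set no fold. The tissue libraries also kept the smallest share of their barcodes (38.6 and 25.4%). Poly(A) priming and near-identical copies limit what a member's UMIs stand for.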
